A study of Homo sapiens with 6 samples.

Results

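The genes described here are the receptors for oestrogen and progesterone and the genes that usually accompany them in luminal breast epithelium: ESR1, PGR, FOXA1, GATA3, GREB1, TFF1, AGR2, AGR3 and XBP1. They were taken by symbol from the deposited gene counts, and all 9 were found among 58735 genes. MDA-MB-231 cells were used, an established line of the triple-negative class of breast cancer, which lacks oestrogen receptor, progesterone receptor and HER2 amplification. RNA was extracted after 48 h from cells labelled PM2.5, meaning exposure to fine airborne particulate matter, and from cells labelled Control, with 3 libraries in each group. No source used here gives the particle dose or the vehicle, or says that the cultures were separate, so the p-values measure the spread between these libraries, which may be technical.

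Total counts ran from 32187965 to 34691009 in the PM2.5 libraries and from 31846136 to 33495707 in the Control libraries. On the second principal component, with 13.2% of the variance, Control replicate 3 stood apart at -21.45, against 10 and 8.9 in Control replicates 1 and 2. HMOX1 and CYP1A1, which particulate matter is known to induce, had lower levels in PM2.5 libraries. HMOX1 averaged 51.3 ± 6.0 CPM in PM2.5 libraries and 813 ± 58.3 CPM in Control libraries, and CYP1A1 2.73 ± 0.65 CPM in PM2.5 libraries and 6.29 ± 1.73 CPM in Control libraries (SD, n = 3 each). CPM is the count scaled to library size with TMM factors. All directions are those of the libraries as labelled. An exchange of the labels of the groups was not tested, and would turn every rise and fall given here.

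In luminal breast cells, oestrogen receptor alpha (the product of ESR1) binds oestrogen and then DNA, with FOXA1 opening the chromatin ahead of it and GATA3 acting beside it. PGR, GREB1 and TFF1 are classic genes switched on by that receptor, and AGR2, AGR3 and XBP1 are commonly high in receptor-positive tumours. XBP1 and AGR2 have a second role: XBP1 is a transcription factor of the unfolded protein response, and AGR2 is a member of the protein disulfide isomerase family in the endoplasmic reticulum.

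XBP1 and AGR2, the genes of this set that rose, are shown here by the stretch before their RefSeq start sites (GRCh38.p14). A promoter window was found for 7 of the 9 genes, all but GREB1 and TFF1. The XBP1 stretch covers chr22:28800598-28800819 on the minus strand and the AGR2 stretch covers chr7:16805081-16805249 on the minus strand, each stopping where an exon of the gene begins in GENCODE 29. In the XBP1 stretch, 137 of 222 bases lie in annotated exons outside XBP1. In the AGR2 stretch, 0 of 169 bases lie in exons of other genes. Capitals mark the fixed letters of the endoplasmic reticulum stress element, the boxes CCAAT and CCACG with 9 bases between them.
XBP1: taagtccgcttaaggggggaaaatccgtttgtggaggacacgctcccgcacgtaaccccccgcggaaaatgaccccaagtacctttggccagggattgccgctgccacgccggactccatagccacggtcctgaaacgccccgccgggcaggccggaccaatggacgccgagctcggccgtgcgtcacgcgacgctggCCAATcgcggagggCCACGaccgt
AGR2: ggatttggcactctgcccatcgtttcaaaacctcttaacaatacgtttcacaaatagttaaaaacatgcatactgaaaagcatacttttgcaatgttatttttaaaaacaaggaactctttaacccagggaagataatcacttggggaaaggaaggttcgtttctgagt

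The 250 bases before each RefSeq start were searched on both strands for that element, for the oestrogen response element (GGTCA and TGACC with 3 bases between them) and for ACGTGG, a core bound by XBP1. XBP1 held the stress element once, from 52 to 34 bases before the start, a match that 26 of 35116 promoter windows of the genome hold (0.074%). AGR2 held none of these motifs. No window of the 7 genes held the full oestrogen response element, which 0.0399% of all windows hold. Among the 20 windows of the 7 genes, ACGTGG was found in 1 window of ESR1 and 1 of GATA3, against 8.37% of all windows. All 250 bases of that GATA3 window lie in annotated exons outside GATA3. A match describes the letters alone and is no evidence of binding.

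Among the receptors, ESR1 gave no reads. It is annotated at chromosome 6, positions 151656691 to 152129619, plus strand (GRCh38, ENSG00000091831) and had a count of 0 in each of the 3 PM2.5 and each of the 3 Control libraries. Such a 0 allows up to 3 counts, a level of 0.0865 to 0.0942 CPM per library, or 0.00624 to 0.0068 RPKM (CPM per kilobase of gene length). Such limits and intervals hold for counting error alone, because the reads carry no molecular identifiers.

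PGR, the progesterone receptor, at chromosome 11, positions 101029624 to 101130524, minus strand (ENSG00000082175), had 2, 6 and 0 counts in PM2.5 replicates 1 to 3 and 2, 0 and 0 counts in Control replicates 1 to 3. Only PM2.5 replicate 2 exceeded 3 counts, and the groups overlapped. The summed counts were 8 in PM2.5 libraries (95% exact Poisson interval 3.45 to 15.8) and 2 in Control libraries (0.242 to 7.22). These intervals leave out the spread between libraries. The annotated antisense gene PGR-AS1, which shares 5.27% of the exonic bases of PGR, had 0 counts.

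Other receptors through which these hormones can signal were measured at levels from low to high. ESR2, the gene of oestrogen receptor beta, averaged 0.481 ± 0.092 CPM in PM2.5 libraries and 0.738 ± 0.33 CPM in Control libraries, and GPER1, a membrane receptor for oestrogen, 0.547 ± 0.34 CPM in PM2.5 libraries and 0.888 ± 0.18 CPM in Control libraries (SD, n = 3 each). Neither passed the test. The glucocorticoid receptor NR3C1, at 96.7 ± 14.9 CPM in PM2.5 and 87.5 ± 1.0 CPM in Control libraries, and the progesterone-binding membrane protein PGRMC1, at 85.3 ± 2.04 CPM in PM2.5 and 93.2 ± 4.43 CPM in Control libraries, were read more and did not pass the test. In level per length averaged over the 6 libraries, NR3C1 passed 82% and PGRMC1 95.6% of protein-coding genes.

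FOXA1, the pioneer factor of the receptor, is annotated at chromosome 14, positions 37589984 to 37596059, minus strand (ENSG00000129514). It had 6, 8 and 10 counts in the PM2.5 libraries and 2, 2 and 16 counts in the Control libraries. Control replicate 3 was the highest of all, Control replicates 1 and 2 were the lowest, and the groups overlapped. The levels of 0.0591 ± 0.0150 RPKM in PM2.5 libraries and 0.0498 ± 0.0587 RPKM in Control libraries (SD, n = 3 each) left FOXA1 below the filter on low counts, as were ESR1, PGR and AGR3.

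Its relative FOXA2, better known from liver and gut, was read far more, at 96.3 ± 10.8 CPM in PM2.5 libraries and 84.4 ± 14.3 CPM in Control libraries (log2 change 0.19 ± 0.12, SE, adjusted p = 0.258). FOXA3 had 34 counts over the 6 libraries.

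**Figure D1:**
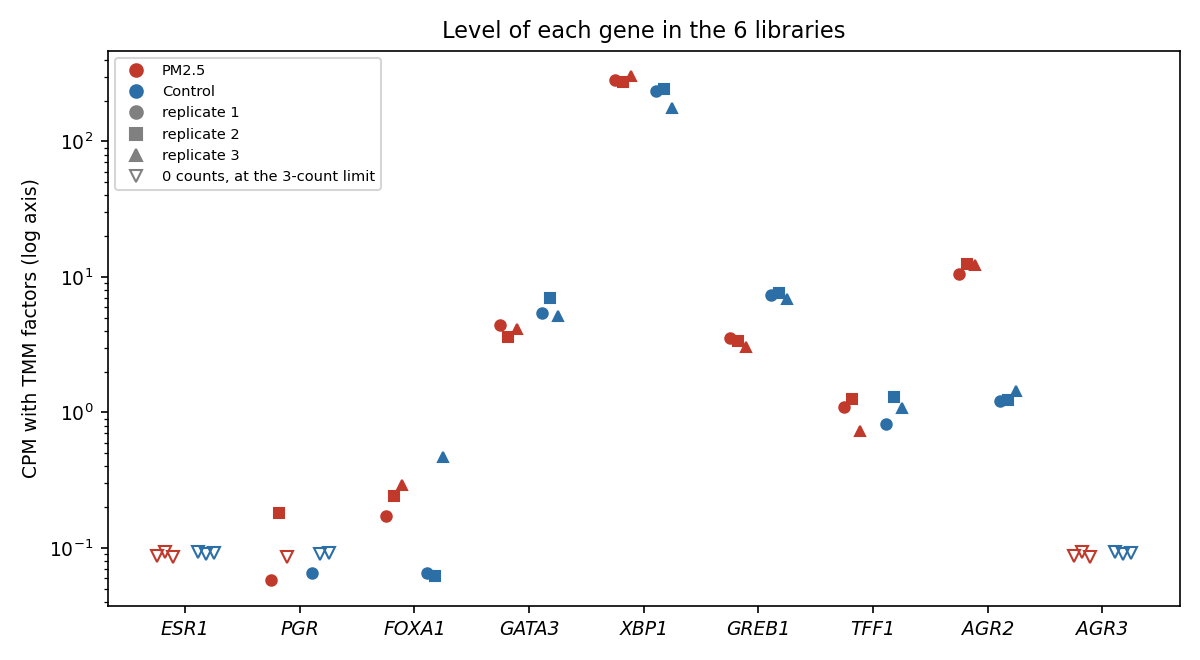
Level of the 9 genes in each library as CPM with TMM factors on a log axis, PM2.5 in red and Control in blue, with marker shape for the replicate number; open triangles stand for 0 counts and are drawn at the level of 3 counts. AGR2 lies between 10.6 and 12.6 CPM in PM2.5 libraries and between 1.21 and 1.43 CPM in Control libraries, while ESR1 and AGR3 are at 0 in all 6.

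The 5 genes that passed the filter were tested with all 14975 such genes in edgeR (quasi-likelihood, Benjamini-Hochberg), and an adjusted p under 0.05 was taken as passing. AGR2 and XBP1 rose, GREB1 and GATA3 fell and TFF1 did not pass. Of all genes tested 31.9% passed, 16.1% higher and 15.8% lower in PM2.5 libraries. PM2.5 and Control libraries were fully separated in these same 4 genes, and in 44.3% of all genes tested. A count over so few genes, chosen by the filter, is given without further reading.

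AGR2 showed by far the largest change of the set. It encodes anterior gradient 2, a disulfide isomerase of the endoplasmic reticulum needed for mucin folding in the mouse gut, and is annotated at chromosome 7, positions 16791811 to 16833433, minus strand (ENSG00000106541). It had 367, 416 and 424 counts in PM2.5 replicates 1 to 3, or 10.6, 12.6 and 12.4 CPM, and 37, 40 and 49 counts in Control replicates 1 to 3, or 1.21, 1.23 and 1.43 CPM. Every PM2.5 library was far above every Control library, and the libraries of each group lay close together.

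The mean was 11.8 ± 1.09 CPM in PM2.5 libraries against 1.29 ± 0.123 CPM in Control libraries (SD, n = 3 each), a 9.11-fold rise (log2 change 3.19 ± 0.19, SE, adjusted p = 3.16e-09). With the labels as given, it was the 11th largest log2 rise of the 14975 genes. RNA was taken from whole cultures, so more cells with AGR2 and more AGR2 RNA per cell cannot be told apart. In level per length, AGR2 passed 69.7% of protein-coding genes in PM2.5 libraries and 46.4% in Control libraries, so the rise brought a low transcript to a moderate level. No exon of another gene overlaps its exons.

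AGR3, the neighbouring paralogue of AGR2, at chromosome 7, positions 16859405 to 16881987, minus strand (ENSG00000173467), had 0 counts in all 3 PM2.5 and all 3 Control libraries. This allows up to 0.0745 to 0.0812 RPKM per library. The 3 counts that a 0 allows are fewer than the smallest AGR2 count of any library, 37. Of all 19951 protein-coding genes 4097 (20.5%) were at 0 in every library, ESR1 and AGR3 among them.

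XBP1, at chromosome 22, positions 28794555 to 28800597, minus strand (ENSG00000100219), was the one highly expressed gene of the set. It gave 285, 276 and 304 CPM in PM2.5 replicates 1 to 3 and 237, 244 and 177 CPM in Control replicates 1 to 3. All PM2.5 libraries lay above all Control libraries, with Control replicate 3 the lowest.

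The XBP1 mean of 288 ± 14.6 CPM in PM2.5 libraries against 220 ± 36.8 CPM in Control libraries was a 1.31-fold rise (log2 change 0.39 ± 0.11, SE, adjusted p = 0.0158). The log2 change was 0.26 without Control replicate 3 (adjusted p = 0.0185), and the call was lost without PM2.5 replicate 3 (0.35, adjusted p = 0.0538). Gene counts do not separate the spliced XBP1 transcript, which encodes the active factor, from the unspliced one.

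GREB1, a chromatin-bound partner of oestrogen receptor alpha and one of its most used target genes, is annotated at chromosome 2, positions 11482341 to 11642788, plus strand (ENSG00000196208). It had 3.54, 3.38 and 3.03 CPM in PM2.5 replicates 1 to 3 and 7.38, 7.62 and 6.88 CPM in Control replicates 1 to 3. Every PM2.5 library was below every Control library.

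The GREB1 mean fell to 3.32 ± 0.261 CPM in PM2.5 libraries, against 7.29 ± 0.381 CPM in Control libraries (SD, n = 3 each), a 2.2-fold fall with a log2 change of -1.14 ± 0.18 (SE, adjusted p = 0.00015). This long gene was low per length, at 0.268 ± 0.0211 RPKM in PM2.5 libraries and 0.590 ± 0.0308 RPKM in Control libraries. Its relative GREB1L averaged 6.73 ± 1.38 CPM in PM2.5 and 6.11 ± 1.36 CPM in Control libraries and was not called.

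GATA3, a zinc finger factor that maintains luminal identity in the mammary gland and also directs T cell fate, is annotated at chromosome 10, positions 8045378 to 8075203, plus strand (ENSG00000107485). It had 4.41, 3.59 and 4.11 CPM in PM2.5 replicates 1 to 3 and 5.46, 6.97 and 5.12 CPM in Control replicates 1 to 3. The groups did not overlap, but PM2.5 replicate 1 and Control replicate 3 were near each other.

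The mean of GATA3 was 4.04 ± 0.414 CPM in PM2.5 libraries against 5.85 ± 0.987 CPM in Control libraries, a 1.45-fold fall (log2 change -0.53 ± 0.19, SE, adjusted p = 0.0429). That call was lost in 9 of 14 alternatives, where the adjusted p reached 0.2 without Control replicate 2 and 0.137 without PM2.5 replicate 2. The antisense gene GATA3-AS1 had 0 counts. Of the other GATA factors, GATA1, GATA4 and GATA5 had 2, 0 and 2 counts over the 6 libraries, while GATA2 and GATA6 were read more than GATA3. GATA2 averaged 22.7 ± 1.62 and 22.2 ± 2.62 CPM and GATA6 29.3 ± 3.12 and 28.4 ± 0.743 CPM in PM2.5 and Control libraries, and neither passed the test. In GATA6, 14.2% of exonic sequence is shared with other genes.

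TFF1, a small secreted trefoil protein that protects mucosa, is annotated at chromosome 21, positions 42362282 to 42366594, minus strand (ENSG00000160182). It had 38, 42 and 25 counts in PM2.5 replicates 1 to 3 and 25, 42 and 37 counts in Control replicates 1 to 3. The groups overlapped almost completely, and the log2 change of -0.05 ± 0.37 (SE, adjusted p = 0.931) changed sign without PM2.5 replicate 3 or without Control replicate 2. At 551 bases it is the shortest of the genes, so these few reads amount to 1.87 ± 0.499 RPKM in PM2.5 libraries and 1.93 ± 0.436 RPKM in Control libraries.

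The next trefoil gene, TFF2, 11154 bases away, was also steady within its spread, at 7.73 ± 0.403 CPM in PM2.5 libraries and 7.85 ± 0.728 CPM in Control libraries (log2 change -0.02 ± 0.15, SE). TFF3, another trefoil factor known to respond to oestrogen, had 5 counts over the 6 libraries.

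**Figure D2:**
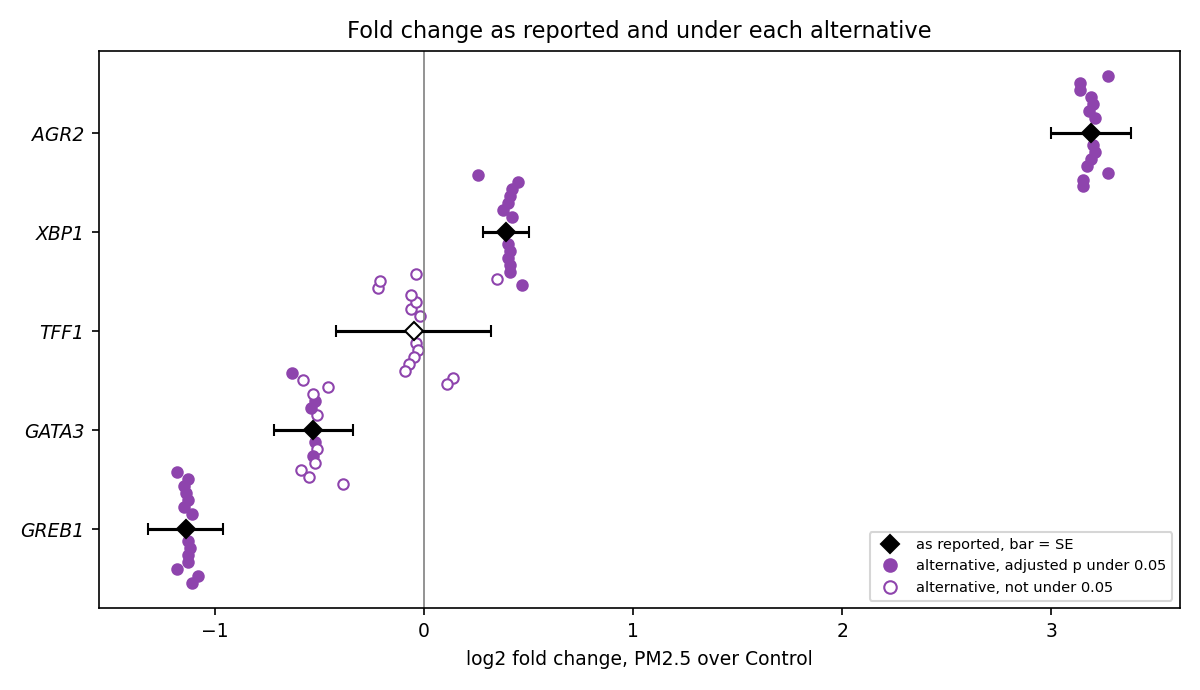
Log2 fold change of PM2.5 over Control for the 5 tested genes, as reported (diamond, bar = SE) and under each of 14 alternatives (circles, filled where the adjusted p is under 0.05). AGR2 stays between 3.14 and 3.27 and GREB1 between -1.18 and -1.08, whereas GATA3 loses its call in 9 alternatives and TFF1 lies on either side of 0.

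Ordered by level per length, the genes ran XBP1, AGR2, TFF1, GATA3, GREB1, FOXA1 and PGR in PM2.5 libraries, with ESR1 and AGR3 at 0. In Control libraries AGR2, at 0.454 ± 0.0433 RPKM, stood below TFF1, GATA3 (1.70 ± 0.287 RPKM) and GREB1. XBP1, at 95.2 ± 4.81 RPKM in PM2.5 libraries and 72.5 ± 12.2 RPKM in Control libraries, exceeded every other gene of the set in all libraries and passed 98% and 97.3% of protein-coding genes. TFF1 and GATA3 overlapped in Control libraries and did not overlap in PM2.5 libraries, where GATA3 had 1.17 ± 0.121 RPKM. FOXA1 lay above PGR in every library in level per length. In Control replicate 1, however, both had 2 counts, and in Control replicate 2 FOXA1 had 2 and PGR 0.

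The library profile most like that of each tested gene was sought among protein-coding genes by Pearson's r of log2 CPM over the 6 libraries, which fall into 2 groups, so that r mostly follows the group difference. For AGR2 the closest were the secreted protein CCDC80 (r = 0.9996), the adhesion protein MPZL2 (0.9989) and the phospholipid enzyme LPCAT1 (0.9986), among 758 genes with r above 0.95. MPZL2 also rose by a like amount, with a log2 change of 2.85, whereas CCDC80 changed by 0.60 and LPCAT1 by 0.63. For GREB1 the closest were TARS2 (r = 0.9976), PFKFB2 (0.9976) and GALNT12 (0.9973).

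For XBP1 they were JADE1 (r = 0.9993), ERCC2 (0.9958) and TMEM39A (0.9947), among 211 genes. For GATA3 they were TIMM13 (r = 0.9893), CSKMT (0.986) and PLA2G4C (0.9852), among 81, and for TFF1 they were BAG4 (r = 0.99), MAP3K2 (0.9882) and ANK3 (0.984), among 16. With 6 libraries such values describe a profile and nothing more.

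While GREB1 fell, no tested gene in a list of other oestrogen-responsive genes passed as lower. Of 19 tested of 25 in the list, 4 rose, 0 fell and 15 did not pass, with a median log2 change of 0.15 against -0.01 over all genes tested. The share that rose, 21.1%, was near the 16.1% of all genes tested. The share that fell was 0%, against 15.8% of all genes tested. Those that rose were the insulin-like growth factor binding protein IGFBP4, at 1580 ± 211 CPM in PM2.5 libraries against 764 ± 49.0 CPM in Control libraries, the carbonic anhydrase CA12, at 31.1 ± 1.31 against 16.1 ± 0.273 CPM in the same groups, the early response factor EGR3 (log2 change 1.07 ± 0.15, SE) and WISP2, a secreted CCN family protein now named CCN5 (log2 change 3.01 ± 0.55, SE), at 1.28 ± 0.215 against 0.159 ± 0.118 CPM.

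Cyclin D1 (CCND1), at 952 ± 19.6 and 956 ± 16.1 CPM, MYC, at 211 ± 8.25 and 197 ± 49.8 CPM, and the lysosomal protease CTSD, at 729 ± 87.1 and 807 ± 71.0 CPM in PM2.5 and Control libraries, were abundant and did not pass the test. Exonic sequence shared with other genes makes up 52.7% of CTSD and 10.3% of CCND1. The receptor corepressor NRIP1 did not pass either (log2 change 0.51 ± 0.20, SE, adjusted p = 0.0633). It passed in 5 of 14 alternatives. CXCL12 and OLFM1 were at 0, and MYB, RERG, RET and TFF3 were below the filter.

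Of 16 tested luminal epithelial genes of 24 in the list, 5 rose (31.2%, against 16.1% of all genes tested) and 1 fell, with a median log2 change of 0.24. The luminal keratins KRT18 and KRT8 rose by 0.84 ± 0.10 and 0.40 ± 0.12 on the log2 scale (SE), the tight junction proteins CLDN4 and CLDN7 by 0.80 ± 0.11 and 0.64 ± 0.10, and the mucin MUC1 by 0.86 ± 0.23. In KRT18 16.3% and in CLDN7 12.3% of exonic sequence is shared with other genes. The MUC1 call was lost without PM2.5 replicate 3 and that of KRT8 without PM2.5 replicate 1 or 3. The receptor ERBB2 (HER2) fell to 43.1 ± 5.51 CPM in PM2.5 libraries, against 64.9 ± 7.01 CPM in Control libraries (adjusted p = 0.00093). Without PM2.5 replicate 3 the number of rises was 3.

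KRT19, at 1199 ± 101 CPM in PM2.5 and 995 ± 146 CPM in Control libraries, was the most abundant luminal keratin and did not pass the test, though it did with library totals only (0.30, adjusted p = 0.0273). EPCAM, with 17 counts over the 6 libraries, the adhesion protein CDH1, with 3, and the epithelial factor GRHL2, with 2, were below the filter, and SLC44A4 and ANKRD30A were at 0.

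Of 12 tested basal and myoepithelial genes of 20 in the list, 5 rose and 3 fell (41.7% and 25%, against 16.1% and 15.8% of all genes tested), with a median log2 change of 0.76. Without PM2.5 replicate 1, Control replicate 1 or Control replicate 2 the number of falls was 2. The integrin chains ITGA6 and ITGB4 rose by 1.32 ± 0.11 and 0.97 ± 0.12 on the log2 scale and the caveolar protein CAV1 by 1.09 ± 0.09. The oxytocin receptor OXTR and the keratin KRT16 rose by 1.35 ± 0.32 and 2.24 ± 0.44, while EGFR and the neurotrophin receptor NGFR had log2 changes of -0.90 ± 0.10 and -1.55 ± 0.22, and the transcription factor FOXC1 -0.37 ± 0.12 (SE). In NGFR 27.1% and in VIM 24.4% of exonic sequence is shared with other genes. The basal keratins KRT6A and KRT6B were at 0 and KRT5 had 2 counts. The mesenchymal filament VIM, at 2683 ± 19.8 CPM in PM2.5 libraries and 2290 ± 320 CPM in Control libraries, and the hyaluronan receptor CD44, at 1545 ± 46.2 CPM in PM2.5 and 1525 ± 75.2 CPM in Control libraries, were high in every library.

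Among other nuclear and hormone receptors, 1 of 23 tested rose and 5 fell (median log2 change -0.10). The share called, 26.1%, was near the 31.9% of all genes tested. By direction, 4.35% rose and 21.7% fell, against 16.1% and 15.8% of all genes tested. The vitamin D receptor VDR fell to 7.83 ± 0.391 CPM in PM2.5 libraries, against 16.1 ± 2.47 CPM in Control libraries, and the mineralocorticoid receptor NR3C2 to 11.6 ± 0.824 against 20.7 ± 1.67 CPM. The liver X receptors NR1H3 and NR1H2 had log2 changes of -1.07 ± 0.23 and -0.40 ± 0.10, and the oestrogen-related receptor ESRRA, which binds no oestrogen, -0.37 ± 0.09 (SE). The rise was that of the orphan receptor NR2F2 (0.28 ± 0.09, adjusted p = 0.0306), a call lost in 6 of 14 alternatives, 4 of which each left out 1 library: PM2.5 replicate 1, PM2.5 replicate 3, Control replicate 1 or Control replicate 2.

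Of 18 tested cofactors of the oestrogen receptor 3 rose and 4 fell (median log2 change 0.02), shares of 16.7% and 22.2% that were near the 16.1% and 15.8% of all genes tested. Without Control replicate 2 only 1 rose. The coactivator NCOA3 rose by 0.59 ± 0.13 on the log2 scale and the histone methyltransferase KMT2C by 0.44 ± 0.13 and TFAP2C by 0.30 ± 0.10, while NCOA1 and the acetyltransferases CREBBP and EP300 had log2 changes of -0.55 ± 0.15, -0.33 ± 0.10 and -0.32 ± 0.10 (SE). The KMT2C call was lost without PM2.5 replicate 2, Control replicate 1 or Control replicate 2, and that of CREBBP without PM2.5 replicate 1 or Control replicate 2. The TFAP2C call was lost at least without PM2.5 replicate 1 or Control replicate 2. That of EP300 was lost at least without PM2.5 replicate 1 or PM2.5 replicate 2. TFAP2A, a factor of epithelial lineages, fell to 5.24 ± 0.463 CPM in PM2.5 libraries, against 12.4 ± 0.552 CPM in Control libraries, and shares 16.7% of its exonic sequence with other genes. Without PM2.5 replicate 1 the number of falls was 2.

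**Figure D3:**
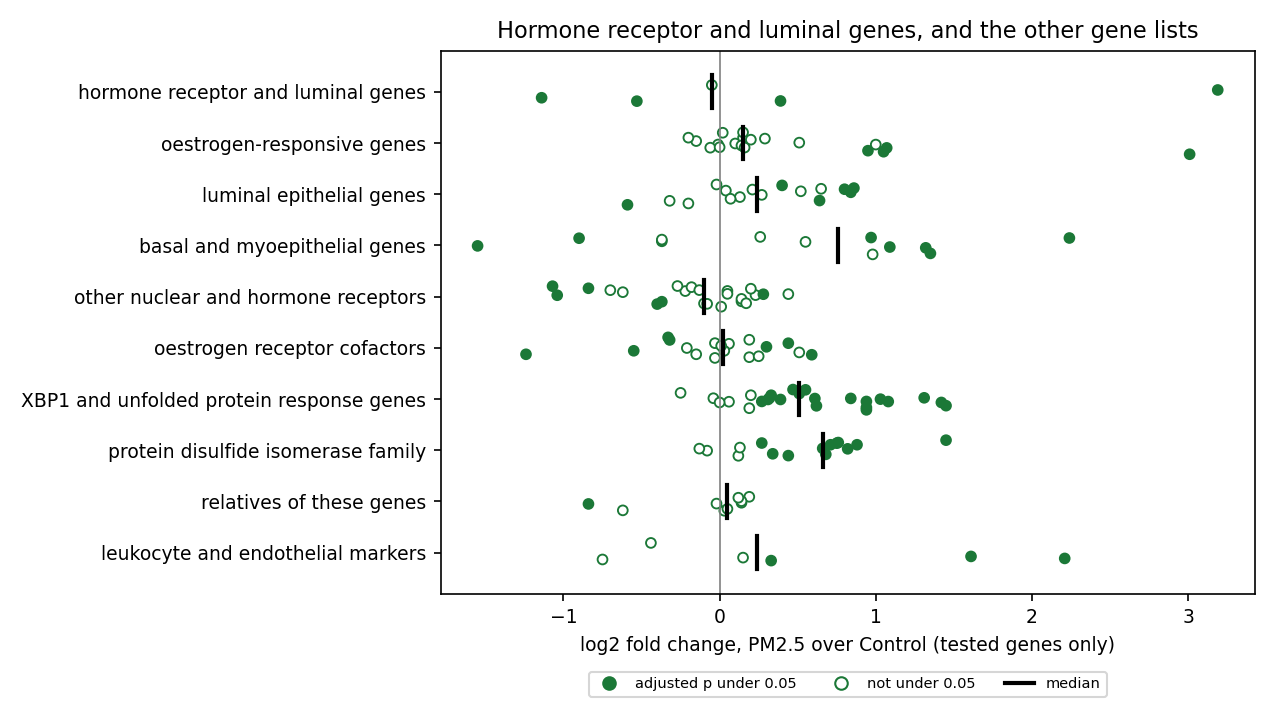
Log2 fold change of PM2.5 over Control for the tested genes of the hormone receptor and luminal set and of each other list; filled circles have an adjusted p under 0.05, and the black bar is the median. The unfolded protein response and disulfide isomerase lists lie to the right, with medians of 0.51 and 0.66, and the oestrogen-responsive list has a median of 0.15.

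Genes tied to the second role of XBP1 and AGR2 were then read. Of 25 tested unfolded protein response genes 19 rose (76%, against 16.1% of all genes tested) and 0 fell, with a median log2 change of 0.51. With 1 library left out in turn, the number that rose ran from 15 (without PM2.5 replicate 1) to 19 (without PM2.5 replicate 3). Without Control replicate 3, 18 rose and 1 fell. PDIA4 rose to 2710 ± 153 CPM in PM2.5 libraries, against 989 ± 303 CPM in Control libraries, and the degradation factors HERPUD1 and SEL1L rose by 1.42 ± 0.23 and 0.94 ± 0.12 on the log2 scale (SE). The co-chaperones DNAJC3 and DNAJB11 rose by 1.03 ± 0.14 and 0.94 ± 0.11, the secreted stress protein MANF by 1.08 ± 0.19, SDF2L1 by 0.94 ± 0.17 and HYOU1 by 0.84 ± 0.11. In DNAJB11, 23.2% of exonic sequence is shared with other genes. SSR3 rose by 0.32 ± 0.10, a call lost without PM2.5 replicate 1, PM2.5 replicate 2 or Control replicate 1.

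The translocon subunits SEC61A1 (log2 change -0.04 ± 0.09) and SEC61B (-0.25 ± 0.10, SE) did not pass the test. SEC61B passed as a fall without Control replicate 3 (-0.33, adjusted p = 0.00523), the 1 fall counted above. ERN1, which encodes the sensor IRE1 that splices XBP1 RNA and was chosen after its values were seen, rose by 0.33 ± 0.09, a call lost without PM2.5 replicate 1, Control replicate 1 or Control replicate 2.

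Control replicate 3 was low in the abundant genes of this list as it was in XBP1. HSPA5, the main chaperone of the compartment, had 12310 to 13070 CPM in PM2.5 libraries and 5641, 6792 and 2919 CPM in Control replicates 1 to 3 (log2 change 1.31 ± 0.21, SE, adjusted p = 0.000201). AGR2 did not share that order, since Control replicate 3 held the highest AGR2 level of the Control libraries, 1.43 CPM. Without Control replicate 3 the AGR2 log2 change was 3.27 (adjusted p = 1.36e-07).

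The stress element found before XBP1 was also found before HSPA5 and CRELD2, and in no other of the 23 genes of this list with a promoter window. The sites are shown to compare their letters, with the fixed letters in capitals and each read on the strand of its gene. They lie at chr22:28800603-28800621 (minus strand), chr9:125241391-125241409 (minus strand) and chr22:49918554-49918572 (plus strand, where the element reads on the opposite strand).
XBP1: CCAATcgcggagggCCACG
HSPA5: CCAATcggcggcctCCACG
CRELD2: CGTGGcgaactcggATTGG

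CRELD2, a secreted stress protein, rose by 0.51 ± 0.10 on the log2 scale (SE, adjusted p = 0.00143). ACGTGG was found in windows of 8 of the 23 genes, against 10.1% of all genes with a window.

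In the protein disulfide isomerase family, to which AGR2 and AGR3 belong, 11 of 15 tested genes rose (73.3%, against 16.1% of all genes tested) and 0 fell (median log2 change 0.66). Beside PDIA4, the general isomerase P4HB rose to 1442 ± 94.0 CPM in PM2.5 libraries, against 815 ± 50.1 CPM in Control libraries. PDIA3, PDIA5 and PDIA6 rose by 0.71 ± 0.11, 0.76 ± 0.09 and 0.88 ± 0.11 on the log2 scale (SE). Exonic sequence shared with other genes makes up 18.9% of PDIA3, 14.3% of PDIA5 and 25.2% of PDIA6.

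The log2 change of AGR2, 3.19, was above that of every tested gene of this list, of which PDIA4 was highest at 1.45, but AGR2 was far less abundant than PDIA4 or P4HB. TXNDC12, the closest relative of the anterior gradient proteins in the family, was not called, at 4.66 ± 0.627 CPM in PM2.5 libraries and 4.27 ± 0.576 CPM in Control libraries. ERP29, at 181 ± 5.18 CPM in PM2.5 and 191 ± 25.4 CPM in Control libraries, did not pass either. Of the exonic sequence of TXNDC12 49.7% is shared with other genes, and of that of ERP29 17.5%.

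**Figure D4:**
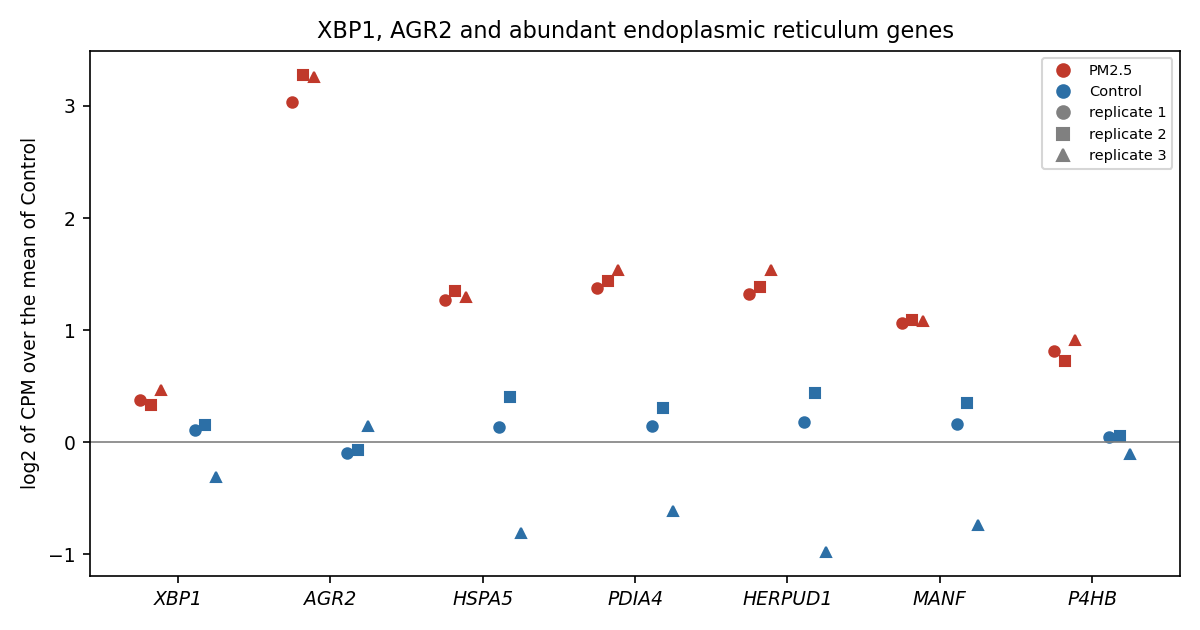
Log2 of each library's CPM over the mean of the Control libraries for XBP1, AGR2 and abundant genes of the endoplasmic reticulum, PM2.5 in red and Control in blue. Control replicate 3 (blue triangles) is the lowest for XBP1, at 177 CPM, and for HSPA5, at 2919 CPM, but not for AGR2, at 1.43 CPM.

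The nearest protein-coding genes on either side were read for each gene. Beside the AGR2 and AGR3 pair, the tetraspanin TSPAN13, 7275 bases from AGR2, rose to 23.9 ± 1.73 CPM in PM2.5 libraries, against 12.6 ± 1.85 CPM in Control libraries (log2 change 0.93 ± 0.14, SE, adjusted p = 8.24e-05). On the far side of AGR3, the aryl hydrocarbon receptor gene AHR rose to 85.4 ± 9.80 CPM in PM2.5 libraries, against 66.2 ± 3.79 CPM in Control libraries (adjusted p = 0.0116), a call lost without PM2.5 replicate 2, Control replicate 1 or Control replicate 2. In AHR, 32.3% of exonic sequence is shared with other genes.

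Next to TFF1, which did not pass, the transmembrane protease TMPRSS3, 5243 bases away, rose to 7.41 ± 1.23 CPM in PM2.5 libraries, against 1.91 ± 0.372 CPM in Control libraries (log2 change 1.95 ± 0.21, SE, adjusted p = 4.61e-06). The RNA-binding protein gene CELF2, far beyond GATA3 at 2723194 bases, rose by 0.78 ± 0.15 (adjusted p = 0.000809) and ARHGAP42 beside PGR by 0.57 ± 0.17 (adjusted p = 0.0185). The ARHGAP42 call was lost without PM2.5 replicate 1, PM2.5 replicate 2 or Control replicate 2.

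MIPOL1 beside FOXA1, TAF3 beside GATA3, E2F6 beside GREB1, and CCDC117 and ZNRF3 beside XBP1 did not pass the test, with log2 changes from -0.20 ± 0.16 (E2F6) to 0.40 ± 0.30 (MIPOL1, SE). CCDC170, which lies next to ESR1 and is often active with it in breast tumours, was at 0 in all libraries, as were SSTR1 beyond FOXA1 and NTSR2 beside GREB1. MYCT1 beyond ESR1 had 11 counts over the 6 libraries and TRPC6 beyond PGR had 39.

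**Figure D5:**
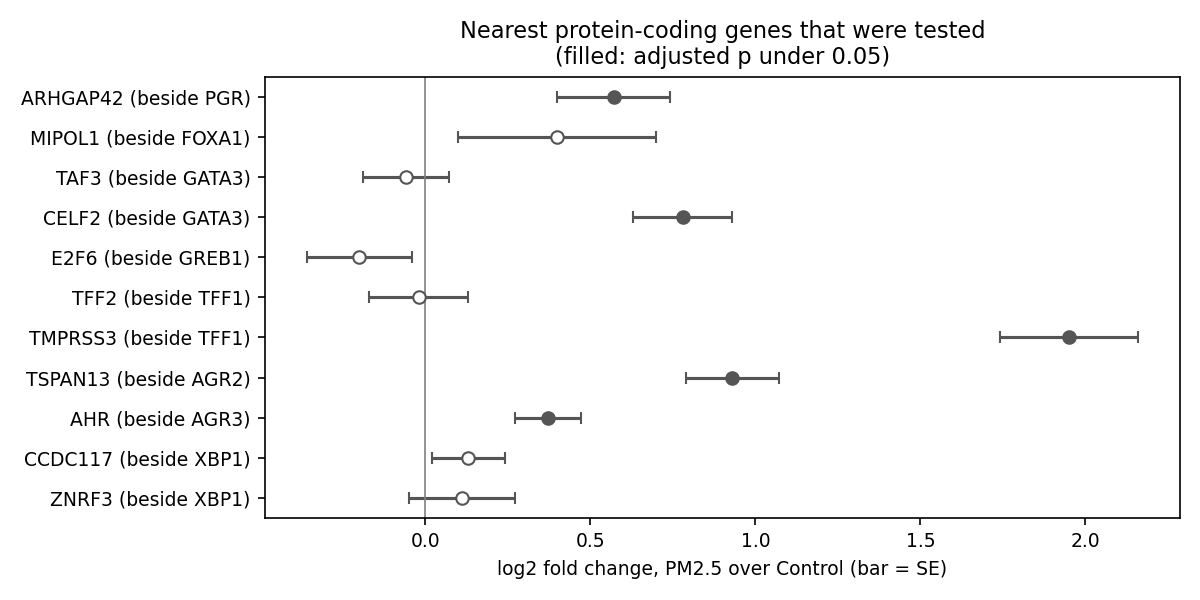
Log2 fold change of PM2.5 over Control (bar = SE) for the tested protein-coding genes nearest to each of the 9 genes, AGR2 itself left out; filled circles have an adjusted p under 0.05. TMPRSS3 beside TFF1 and TSPAN13 beside AGR2 lie farthest to the right of those plotted, at 1.95 and 0.93.

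GATA3 and XBP1 are also active in lymphocytes and plasma cells, so markers of leukocytes and endothelium were read in the same libraries. Their summed level was 56.1 to 61.8 CPM in PM2.5 libraries and 40.0 to 52.4 CPM in Control libraries, most of it the endothelial adhesion molecule PECAM1, at 55.2 ± 2.26 CPM in PM2.5 and 43.8 ± 5.94 CPM in Control libraries. The leukocyte antigen PTPRC, the T cell gene CD3E, the B cell gene MS4A1 and the plasma cell gene JCHAIN were at 0 in all 6 libraries. Other markers of the same cells were read at a low level: over the 6 libraries the T cell gene CD8A had 60 counts, the B cell gene CD79A 43 and the plasma cell gene MZB1 62. CD8A (log2 change -0.75 ± 0.57) and MZB1 (-0.44 ± 0.76, SE) did not pass the test. The endothelial gene VWF, with 82 counts over the 6 libraries, did not pass either (log2 change 0.15 ± 0.59, SE). CDH5, also endothelial, had 4 counts and was below the filter.

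Of 6 tested markers of 15 in the list, 3 rose (50%, against 16.1% of all genes tested) and 0 fell. Those that rose were PECAM1, the lysozyme gene LYZ, at 1.69 ± 0.238 against 0.364 ± 0.116 CPM in PM2.5 and Control libraries, and CD3D, at 0.508 ± 0.0496 against 0.164 ± 0.0906 CPM. The CD3D call held in 5 of 13 alternatives and was lost with DESeq2 (adjusted p = 0.0685) and with no filter (adjusted p = 0.113). In LYZ, 34% of exonic sequence is shared with other genes. The part of these cell types in the results was not tested. Without PM2.5 replicate 1, PM2.5 replicate 3, Control replicate 1 or Control replicate 2 only 1 rose.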

How the data were processed

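Per the file headers, 1 table of raw gene counts for the 6 libraries was deposited, with symbols, coordinates and gene lengths. Build GRCh38 comes from the submitters' processing notes, and the NEBNext Ultra kit from the labels' protocols. No source used here names the aligner, the counter or the strand setting. All 58735 genes matched GENCODE 29 in identifier and position, which gave the exon overlaps.

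R 4.3.3 and edgeR 4.0.16 were used: filterByExpr (minimum count 10, minimum total 15), TMM factors (0.962 to 1.047), then the quasi-likelihood fit and two-sided F test on group alone, adjusted by Benjamini-Hochberg over 14975 genes. The procedure was tested on simulated data. Each SE is the log2 change over the square root of F. Replicates differed beyond sampling noise (chi-square per degree of freedom 4.59 to 24.2), so no libraries were merged for the tests. DESeq2 1.42.0, limma 3.58.1, other scalings and filters, a replicate block and leaving out each library were alternatives.

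The genes and lists were chosen with earlier results of these data known. Named were the 9 genes, up to 5 genes of each list with the smallest p, list genes above 50 RPKM, family and receptor relatives, the 3 most alike profiles and the nearest neighbours. Genes named below the filter or at 0, and TFAP2C, EP300, OXTR, KRT16, FOXC1, CRELD2, NR2F2, VWF, VIM, CD44, HMOX1 and CYP1A1 fall outside that rule. Some genes of the lists are not reported here.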

Additional observations from a re-analysis of the deposited data

How the results depend on the processing

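AGR2 and GREB1 kept their direction and call in all 14 alternatives, with log2 changes of 3.14 to 3.27 and -1.18 to -1.08. XBP1 ranged from 0.26 to 0.47 and lost its call in 1. GATA3 lost its call in 9, at -0.51 with library totals only, -0.51 with upper quartile scaling, -0.52 with limma-voom, -0.53 with the replicate block and, with a library left out, -0.63 to -0.39, called only without Control replicate 3; the cause was not tested. The number of the 9 genes that fell was therefore 1 in those settings and 1 to 2 with each library left out, and the number that rose 1 to 2. With no filter 7 genes were tested, and PGR (adjusted p = 0.599) and FOXA1 (0.895) were not called. ESR1 and AGR3 were at 0 in all 6 libraries, and PGR and FOXA1 were below the filter. For these genes this depth gives only low counts or upper limits. Deviations of same-numbered libraries correlated at 0.0147, -0.048 and -0.175. With 3 libraries in each group these values cannot decide whether replicate numbers pair the libraries. With the replicate block 1951 genes rose and 1826 fell over all genes, the nuclear receptor list had 0 rises, and the calls of KRT8 (adjusted p = 0.0503), NR2F2 (0.0516), CD3D (0.0729) and ARHGAP42 (0.0556) were lost. With no filter the nuclear receptor list had 0 rises too. With DESeq2 5 cofactors rose. The TFAP2C call was lost with the replicate block, and that of EP300 with library totals only. With each library left out, falls over all genes ran from 1448 to 2680, luminal rises from 3 to 5, nuclear receptor rises from 0 to 1, cofactor rises from 1 to 4 and falls from 2 to 4, unfolded protein response falls from 0 to 1 and marker rises from 1 to 3. Unfolded protein response rises ran from 15 to 19 there and were 17 with the replicate block. Signs turned for TFF1 (-0.22 to 0.14; 0.11 without Control replicate 2), MYC (-0.09 to 0.26), CCND1 (0 with RLE size factors and with DESeq2, 0.02 with library totals only, 0.01 with upper quartile scaling, -0.03 to 0.02 with a library left out), GATA2 (-0.05 to 0.12), GATA6 (-0.01 to 0.13), TFF2 (-0.09 to 0.04), TAF3 (-0.15 to 0.03) and ZNRF3 (-0.04 to 0.20), ranges with 1 library left out, none of them called.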
